A study of Mus musculus with 12 samples.

Results

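Interleukin-4 (IL-4) was compared with mock in wild-type (WT) mouse bone marrow-derived macrophages (BMDMs) across all genes of the deposited count table. The comparison used the 6 libraries labelled WT, 3 mock and 3 IL-4, of 12 libraries in the series, and all 13715 genes of the table. Marrow cells had matured over 7 days in 40 ng/ml M-CSF, which drives marrow progenitors to become macrophages. The cultures then received 20 ng/ml IL-4 or no cytokine for 24 h. The other 6 libraries came from LysMCre Stk11 fl/fl mice (KO), in which a Cre recombinase driven by the myeloid Lyz2 locus acts on the floxed gene of the kinase LKB1, under the same culture and stimulation. The series title names LKB1, mitochondrial metabolism and macrophage polarization as its subjects. WT cultures here are a model of a single cytokine acting on M-CSF-grown cells, with no tissue around them. Whether the 3 samples of a group came from different mice is not stated, so a p-value here reflects only the spread among these cultures, which may be technical.

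IL-4 binds a receptor made of IL-4Rα with the common gamma chain, or with IL-13Rα1, and the receptor's Janus kinases phosphorylate the transcription factor STAT6. In mouse macrophages STAT6 switches on genes of alternative activation, among them arginase 1, chitinase-like proteins, the resistin-like protein RELMα and the mannose receptor. The state is known from helminth infection, allergy and tissue repair. It is also known for a reliance on oxidative metabolism and for the fusion of macrophages into giant cells.

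STAT6 homodimers are known to prefer a palindrome with 4 bases between its arms, TTC and GAA with any 4 bases between them. To let the letters be read beside the responses, promoter windows from 250 bases before to 50 bases after the start were taken from RefSeq (GRCm38.p6), and 11 of the 16 largest rises described below had a window. The motif, which reads the same on both strands, was found in 2 of these 11 windows, those of Tmem26 and Plekhf1. Both are printed 5′ to 3′ on the gene's strand with the motif in capitals, the first at chr10:68723496-68723795 on the plus strand and the second at chr7:38227945-38228244 on the minus strand.
Tmem26: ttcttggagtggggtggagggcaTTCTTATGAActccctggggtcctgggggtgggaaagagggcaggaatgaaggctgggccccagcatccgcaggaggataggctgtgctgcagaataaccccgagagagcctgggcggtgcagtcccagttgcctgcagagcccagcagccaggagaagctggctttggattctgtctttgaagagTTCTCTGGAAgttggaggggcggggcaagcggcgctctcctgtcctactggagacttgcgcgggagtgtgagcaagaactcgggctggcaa
Plekhf1: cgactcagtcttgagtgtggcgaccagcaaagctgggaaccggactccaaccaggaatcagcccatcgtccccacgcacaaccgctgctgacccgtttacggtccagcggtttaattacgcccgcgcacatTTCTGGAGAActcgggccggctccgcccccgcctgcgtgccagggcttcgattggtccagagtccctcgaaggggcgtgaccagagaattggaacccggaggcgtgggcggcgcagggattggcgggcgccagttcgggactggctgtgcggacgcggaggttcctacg
The Tmem26 window held 2 matches, which begin 227 and 41 bases before the start, and the Plekhf1 window held 1, which begins 119 bases before it. Tmem26, which encodes a transmembrane protein, was at 6.47, 4.49 and 4.42 CPM in mock and 234, 173 and 205 CPM in IL-4 (log2 change 5.32 ± 0.17 SE, edgeR adjusted p = 2.3e-11). Plekhf1, which encodes a phosphoinositide-binding endosomal protein, was at 4.10, 3.63 and 3.14 CPM in mock and 43.6, 49.0 and 40.1 CPM in IL-4 (log2 change 3.61 ± 0.12 SE, edgeR adjusted p = 3.5e-11). Over all 32851 windows 6.95% held the motif, and 5.62% of the windows of genes in the count table did. It was in 47 of 470 windows (10%) of genes called at least 2-fold higher with IL-4 and in 17 of 381 windows (4.46%) of genes called at least 2-fold lower. Of the 16 largest falls 8 had windows, 10 in all, and 0 of these held it. A form with 1 base fewer between TTC and GAA was in 2 of the 11 windows of rises and 2 of the 10 of falls. That form was in 7.66% of the windows of genes called at least 2-fold higher and 6.56% of those called at least 2-fold lower. The windows of the largest rises and falls are few. A match is only a match of letters, and no binding was measured.

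The cells carried the marker genes of macrophages in every library. The 10 macrophage markers fixed for this check, among them Csf1r, Adgre1, Cd68 and Lyz2, were all measured, and their summed level was 49900 to 55210 CPM, meaning counts per library brought to one TMM-normalised size, in mock and 40650 to 43090 CPM in IL-4. Dendritic cell markers summed to 0.541 to 0.833 CPM in mock and 1.596 to 4.05 CPM in IL-4, with 2 of 8 measured, Zbtb46 called higher, and Flt3, Xcr1 and Clec9a not analysed here. Neutrophil markers summed to 100.5 to 231 CPM in mock and 49.4 to 137 CPM in IL-4, with 9 of 10 measured and none called. With the replicate block Ltf, S100a8 and S100a9 were called lower (adjusted p = 1.88e-06, 7.14e-05 and 0.000112). Of the T and NK cell markers 2 of 7 were measured (Cd3e was not analysed here, Cd4 was called lower), and they summed to 7.42 to 10.5 CPM in mock and 3.77 to 5.10 CPM in IL-4. The part of other cell types in the results was not tested, and in bulk RNA fewer cells of a type and less RNA per cell cannot be told apart.

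The 6 WT libraries held 30651627 to 39136822 counts. The first principal component of log2 CPM took 76.2% of the variance and set mock libraries (-21.4 to -19.1) apart from IL-4 libraries (17.3 to 22.7). Stk11 was at 44.9, 46.0 and 37.7 CPM in mock and 42.5, 54.4 and 38.7 CPM in IL-4 of the WT libraries and between 3.87 and 9.24 CPM in the 6 KO libraries, with every KO value below every WT value. Lyz2 was at 43.2 and 43.4 CPM in the mock and IL-4 libraries labelled KO 2 and at 15400 to 21600 CPM in the other 4 KO libraries. These KO 2 libraries enter the WT comparison through the shared estimate of spread and through the scaling and filter, which used all 12 libraries. Results are given without them where that matters.

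IL-4 moved many genes, with rises and falls in near equal number under TMM scaling, which takes most genes as unchanged. Over the alternative fits 50.2% to 57.6% of calls were higher. The calls below use an adjusted p under 0.05. Of the 13715 genes 3658 were called (26.7%), 1871 higher (13.6%) and 1787 lower (13.0%), with a median log2 fold change of -0.02 over all genes. The large changes were mostly rises. At least 2-fold changes were called for 901 genes (6.57%), 520 higher (3.79%) and 381 lower (2.78%), at least 8-fold changes for 109 higher and 18 lower, and at least 32-fold changes for 46 higher and 2 lower. These folds are fitted values. A whole group had 0 counts in 21 of the genes past 8-fold and in 20 of those past 32-fold, so the fold of these genes has no measured denominator. CPM did not overlap between mock and IL-4 for 3546 of the 3658 genes called and 884 of the 901. The same count over all genes is not given here. Called genes tend to separate in the libraries that gave the call, so this is no separate support. Calls covered 14.1% of genes in the lowest abundance class and 60.2% in the highest, so a larger share of the abundant genes was called at this depth. Counts of called list members below are to be read beside these shares and the 13.6% higher and 13.0% lower over all genes.

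**Figure D1:**
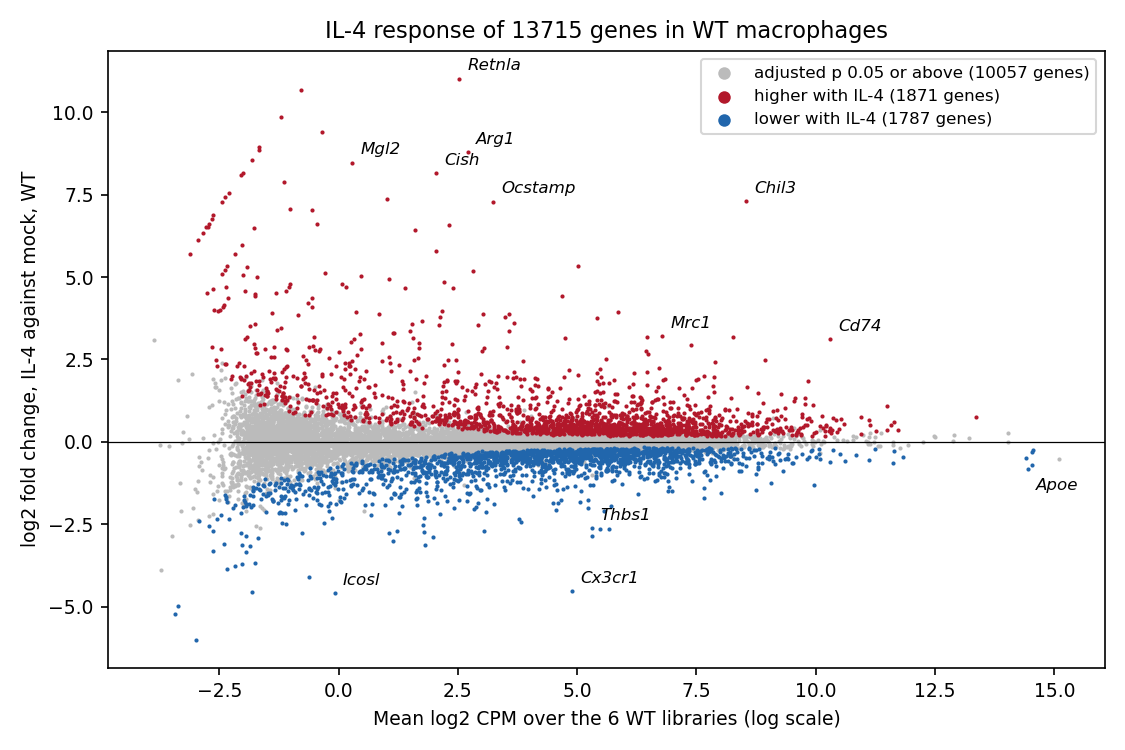
Log2 fold change of IL-4 against mock in WT (vertical) against mean log2 CPM over the 6 WT libraries (horizontal), 1 point a gene, red for the 1871 called higher and blue for the 1787 called lower. The largest changes, such as Retnla, Arg1 and Chil3, lie above 0, and Cx3cr1 stands out among the falls of well-expressed genes.

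The receptor chains and kinases that carry the signal moved in both directions. Of 7 measured receptor chains and Janus kinases 2 rose, both by at least 2-fold, and 2 fell (median log2 fold change 0.16, and 0.25 without WT mock 3 or 0.28 without WT IL-4 2). The falls numbered 1 without WT mock 3 or IL-4 1. Il2rg, the common gamma chain, was at 71.1, 66.9 and 58.1 CPM in mock and 137, 135 and 126 CPM in IL-4 (log2 change 1.02 ± 0.09 SE, edgeR adjusted p = 1.1e-06), and Jak2 rose by 1.46 ± 0.15 (adjusted p = 3.1e-06). Il13ra1, the partner chain of the type II receptor, was at 25.9, 27.1 and 25.9 CPM in mock and 14.5, 12.1 and 15.4 CPM in IL-4 and fell by 0.91 on the log2 scale (adjusted p = 3.0e-05). Il4ra was at 131, 138 and 169 CPM in mock and 109.9, 106 and 124 CPM in IL-4 (log2 change -0.37 ± 0.10 SE, edgeR adjusted p = 0.011), with every IL-4 value below every mock value. That call was lost without WT mock 3 (adjusted p = 0.0727) or without WT IL-4 1 (0.0517). Stat6 itself was at 397, 388 and 458 CPM in mock and 388, 347 and 411 CPM in IL-4 with overlapping groups (-0.12 ± 0.08, adjusted p = 0.31).

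Several inhibitors of cytokine signalling, which STATs are known to induce, rose steeply. Of 15 such genes 6 rose and 3 fell, and 0 fell in edgeR without WT mock 3. Cish, an inhibitor of STAT5 signalling in T cells (ENSMUSG00000032578.7, mm10 chr9:107296026-107302784, plus strand), was at 0.256, 0.318 and 0.106 CPM in mock and 59.9, 72.5 and 57.0 CPM in IL-4 (log2 change 8.14 ± 0.20 SE, edgeR adjusted p = 2.5e-12). Socs1, which blocks Janus kinases, was at 1.03, 0.955 and 1.46 CPM in mock and 37.7, 51.6 and 36.4 CPM in IL-4 (log2 change 5.17 ± 0.18 SE, edgeR adjusted p = 6.9e-11). Socs2 went from 0.449, 0.509 and 0.506 CPM to 12.8, 14.0 and 10.8 CPM (4.67 ± 0.16, adjusted p = 5.1e-11) and Socs3 rose by 1.41 ± 0.19 (adjusted p = 5.5e-05). In all 4 genes each IL-4 library lay above each mock library.

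Nearly all known markers of alternative activation rose. Of 43 measured members of a textbook marker list, which was drawn up because IL-4 is known to induce them, 38 rose, 35 of them at least 2-fold, 4 fell and 1 was not called (median log2 fold change 2.66, and 2.66 again with 3 genes at 0 in mock set at their bound). Retnla, which encodes RELMα, had 4, 3 and 3 counts in the mock libraries and 9852, 8472 and 5514 in the IL-4 libraries, a ratio of library-scaled counts of 2171 with a 95% counting interval of 1180 to 4528. Arg1, which splits arginine into ornithine and urea (ENSMUSG00000019987.9, mm10 chr10:24915221-24927484, minus strand), was at 0.353, 0.287 and 0.213 CPM in mock and 118, 129.8 and 129 CPM in IL-4 (log2 change 8.79 ± 0.21 SE, edgeR adjusted p = 2.5e-12). Chil3, the chitinase-like protein Ym1 (ENSMUSG00000040809.10, mm10 chr3:106147554-106167564, minus strand), was at 19.6, 32.4 and 38.9 CPM in mock and 4403, 4585 and 5299.7 CPM in IL-4, 157 times higher in the mean (log2 change 7.29 ± 0.31 SE, edgeR adjusted p = 4.7e-10). Reads of Chil3 and its near-identical relative Chil4 may have been split in counting.

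Receptors and surface proteins of the same program followed. Mrc1, the mannose receptor, was at 32.5, 36.2 and 40.2 CPM in mock and 358, 261 and 392 CPM in IL-4 (log2 change 3.21 ± 0.17 SE, edgeR adjusted p = 6.2e-09), and all 3 IL-4 libraries lay at least 6 times above every mock library. Mgl2, a galactose-binding lectin (CD301b), had 4 counts in all in mock and 671, 608 and 428 counts in the IL-4 libraries, a ratio of 389 with a 95% counting interval of 152 to 1428. Pdcd1lg2, the PD-1 ligand PD-L2, was at 0.160, 0.0318 and 0.213 CPM in mock and 23.3, 24.6 and 22.3 CPM in IL-4 (log2 change 7.35 ± 0.21 SE, edgeR adjusted p = 9.4e-12). Flt1, a VEGF receptor, was at 0.353, 0.637 and 0.479 CPM in mock and 52.3, 46.7 and 41.7 CPM in IL-4 (6.57 ± 0.25, adjusted p = 1.3e-10). The 4 members that fell were Il1rn, the IL-1 receptor antagonist (-0.74), the fatty acid carriers Fabp4 (-0.73) and Fabp5 (-0.52), and Plin2, which coats lipid droplets (-0.63). Tgm2, a transglutaminase used as a marker of the state in mouse and human, was at 101, 123 and 132 CPM in mock and 151, 132 and 139 CPM in IL-4 (0.25 ± 0.10, adjusted p = 0.083). Its groups were apart by less than the rounding shown, and it was called with the replicate block (adjusted p = 0.0248).

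**Figure D2:**
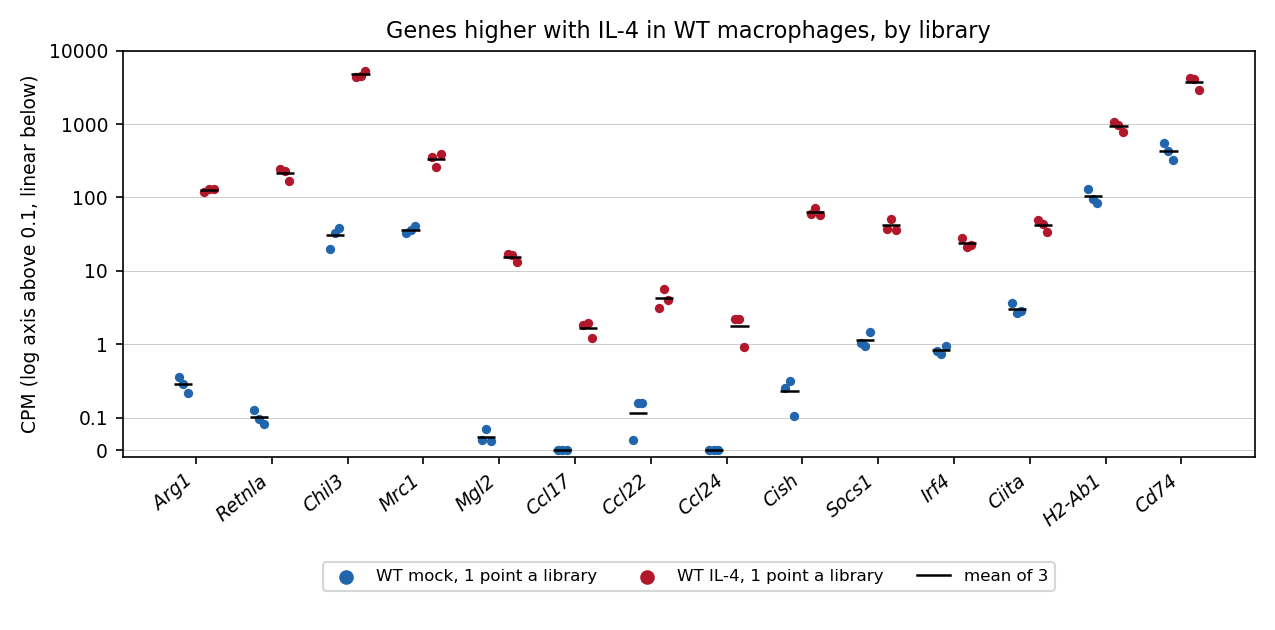
CPM per library (vertical, logarithmic above 0.1 and linear below) of 14 genes in WT mock (blue) and WT IL-4 (red), with a bar at the mean of 3. In each gene the 3 IL-4 points lie above the 3 mock points, and Ccl17 and Ccl24 are at 0 in mock.

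The transcription factors of the program rose more often than they fell. Of 46 measured factors and cofactors 24 rose and 6 fell (median log2 fold change 0.25). Irf4, which mouse macrophages are known to need for alternative activation, was at 0.801, 0.732 and 0.958 CPM in mock and 28.4, 21.1 and 22.8 CPM in IL-4 (log2 change 4.84 ± 0.25 SE, edgeR adjusted p = 2.9e-09). Batf3, an AP-1 family factor, was at 2.15, 2.20 and 1.97 CPM in mock and 30.3, 37.1 and 25.6 CPM in IL-4 (3.88 ± 0.17, adjusted p = 4.8e-10). Nfil3, a basic leucine zipper repressor, was at 10.4, 7.77 and 8.89 CPM in mock and 79.0, 82.0 and 81.2 CPM in IL-4 (3.16 ± 0.12, adjusted p = 1.6e-10). Smaller rises were those of Klf4 (2.53 ± 0.19, adjusted p = 1.4e-07), Ppargc1b, a coactivator of mitochondrial genes (2.11 ± 0.10, adjusted p = 2.3e-09), Myc (1.98 ± 0.14, adjusted p = 8.2e-08), Bhlhe40 (1.34 ± 0.05, adjusted p = 2.3e-10) and the fatty acid receptor Pparg (0.83 ± 0.07, adjusted p = 6.7e-07). Among the falls Nr4a1, an orphan nuclear receptor, was at 10.1, 10.9 and 10.8 CPM in mock and 2.19, 3.14 and 2.61 CPM in IL-4 (-2.01 ± 0.15, adjusted p = 1.2e-07), and Maf fell by 1.42 on the log2 scale (adjusted p = 7.8e-08).

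A further set went from almost no counts to clear expression. By a rule of at most 10 counts over one group and at least 20 in each library of the other, 33 genes were switched on and 2 were switched off. Where a group held 0 counts, the bound sets it at 3 counts over the group, and intervals and bounds cover counting error only. Scn3a, a voltage-gated sodium channel gene, had 0 counts in the 3 mock libraries and 319, 159 and 181 in IL-4, at least 200-fold higher. Rnase2a, a ribonuclease of the eosinophil-associated family, had 0 and then 155, 144 and 71 counts, at least 112-fold higher. Il31ra, a chain of the IL-31 receptor, had 1 count in all in mock and 405, 301 and 302 in IL-4, a ratio of 918 with a 95% counting interval of 164 to 36290.

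Other switched genes included Rasgrp1, a Ras activator, with 1 count in all in mock and 145, 80 and 124 in IL-4 (ratio 318, interval 56.7 to 12590). Cdh1, E-cadherin, rose from 3, 2 and 0 counts to 268, 149 and 168 (ratio 107, interval 45.4 to 329), and Tuba8, an alpha-tubulin, from 0, 0 and 4 counts to 221, 250 and 155 (ratio 142.5, interval 55.4 to 525). Adipoq, the adipocyte hormone adiponectin, had 0 counts in mock and 62, 51 and 36 in IL-4, at least 45.2-fold higher. The genes switched off were Cmah, which makes the sialic acid Neu5Gc, with 26, 33 and 35 counts in mock and 0, 4 and 0 in IL-4, and the long noncoding RNA Gm32312, with 21, 24 and 29 counts against 2, 2 and 2. All these rest on libraries of at least 30651627 counts.

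Among well-expressed genes (mean log2 CPM of at least 3, no overlap), the 16 largest rises spanned log2 changes of 3.11 to 7.29. Besides genes already named, Ocstamp, a transmembrane protein needed for cell fusion in mice, was at 0.929, 0.573 and 0.692 CPM in mock and 131, 114 and 97.0 CPM in IL-4 (7.28 ± 0.32, adjusted p = 6.2e-10). Slc7a2, a transporter of arginine, was at 6.12, 4.30 and 6.44 CPM in mock and 144, 85.5 and 134 CPM in IL-4 (4.43 ± 0.20, adjusted p = 7.2e-10). C3, the central complement component, was at 14.9, 14.2 and 15.5 CPM in mock and 267, 193 and 223 CPM in IL-4 (3.94 ± 0.20, adjusted p = 2.9e-09). Lipn, a lipase (3.87 ± 0.14, adjusted p = 6.9e-11), Ptgs1, cyclooxygenase 1 (3.74 ± 0.12, adjusted p = 3.1e-11), and Ier3, an immediate-early gene (3.35 ± 0.13, adjusted p = 1.6e-10), rose with no overlap. The remaining members, Ciita, H2-Eb1, H2-Ab1 and Cd74, belong to antigen presentation.

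The 16 largest falls spanned log2 changes of -4.53 to -1.84. Cx3cr1, the fractalkine receptor (ENSMUSG00000052336.7, mm10 chr9:119901616-120069879, minus strand), led them at 166, 127 and 136 CPM in mock and 6.63, 4.64 and 7.34 CPM in IL-4, 23.1 times lower (log2 change -4.53 ± 0.25 SE, edgeR adjusted p = 7.5e-09). Nptx1, a neuronal pentraxin, was at 91.9, 108 and 123 CPM in mock and 11.5, 13.6 and 19.5 CPM in IL-4 (-2.86 ± 0.32, adjusted p = 9.4e-06). Serpine2, an inhibitor of serine proteases, was at 86.2, 134 and 125 CPM in mock and 12.3, 20.2 and 22.4 CPM in IL-4 (-2.66 ± 0.33, adjusted p = 2.8e-05). Thbs1, the matrix glycoprotein thrombospondin 1, was at 112, 77.9 and 109 CPM in mock and 17.98, 11.5 and 19.5 CPM in IL-4 (-2.61 ± 0.24, adjusted p = 1.1e-06). In each of these the highest IL-4 library was below the lowest mock library.

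Further falls were those of the adrenergic receptor Adra1a (-2.696), the iron exporter Slc40a1 (-2.64), Pcp4l1 (-2.45), the lysophosphatidylserine receptor Gpr34 (-2.34), the orphan receptor Gpr162 (-2.12), Cd14 (-2.10) and caveolin Cav1 (-2.06). The list ended with Klhl6 (-2.01), the IGF-binding Igfbp4 (-1.95), Abhd15 (-1.88), the immunoglobulin heavy chain Ighm (-1.86) and Ctla2a (-1.84). Their adjusted p-values lay between 7.9e-10 (Slc40a1) and 0.00014 (Ctla2a).

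**Figure D3:**
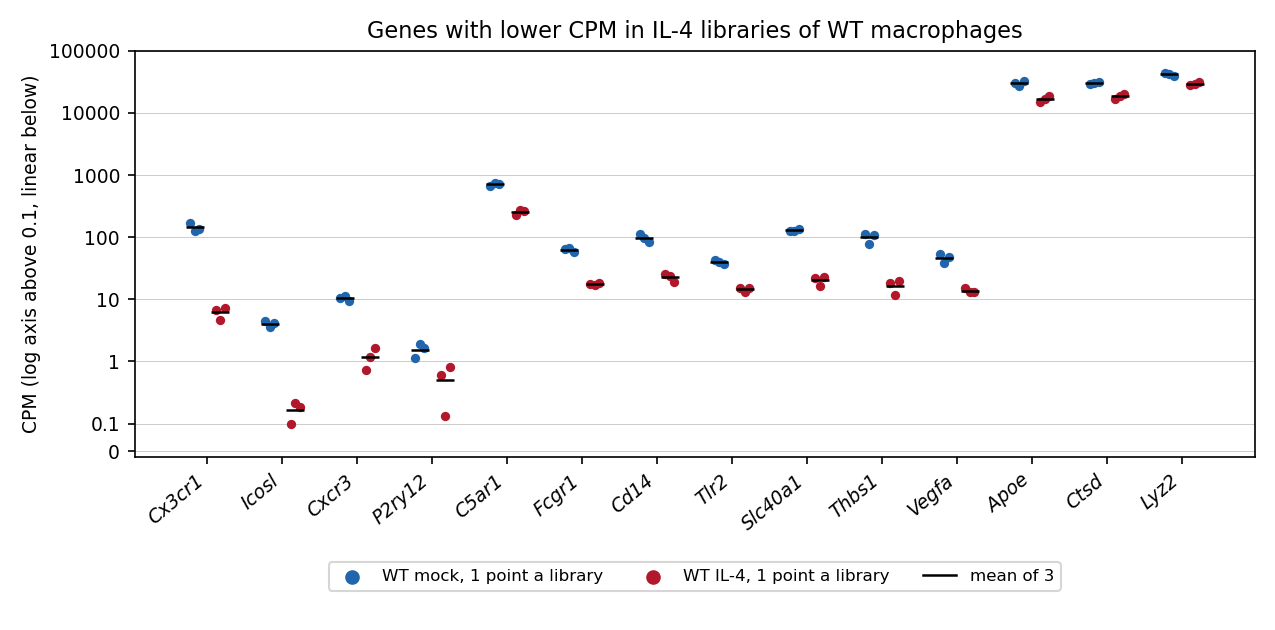
CPM per library (vertical, logarithmic above 0.1 and linear below) of 14 genes in WT mock (blue) and WT IL-4 (red), with a bar at the mean of 3. In each gene the IL-4 points lie below the mock points, from a 24.2-fold lower mean for Icosl to 1.43-fold for Lyz2, which was not called.

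MHC class II presents peptides to CD4 T cells, and its genes rose together in the IL-4 libraries. Of 12 measured members 8 rose, 7 of them at least 2-fold, and 0 fell (median log2 fold change 2.0), while their summed level went from 612 to 945 CPM in mock to 4662 to 6729 CPM in IL-4. Ciita, the transactivator of the class II genes, was at 3.62, 2.67 and 2.85 CPM in mock and 48.9, 43.0 and 33.7 CPM in IL-4 (log2 change 3.78 ± 0.18 SE, edgeR adjusted p = 1.3e-09). Cd74, the invariant chain, was at 549, 428 and 323 CPM in mock and 4290.3, 4072 and 2888 CPM in IL-4 (3.11 ± 0.25, adjusted p = 2.9e-07). The chain genes H2-Ab1 (130.1, 96.7 and 84.8 CPM in mock and 1075, 965 and 788 CPM in IL-4; 3.18 ± 0.24, adjusted p = 1.9e-07), H2-Aa (2.94 ± 0.26, adjusted p = 8.2e-07) and H2-Eb1 (3.19 ± 0.22, adjusted p = 6.9e-08) rose by a like amount, and the peptide-loading genes H2-DMa (2.13 ± 0.12, adjusted p = 1.2e-08) and H2-DMb1 (1.88 ± 0.11, adjusted p = 1.3e-08) by less. Rfx5, a subunit of the factor that binds class II promoters, was called (0.44 ± 0.14, adjusted p = 0.032) although its groups overlap, and that call was lost in 5 alternatives, with adjusted p from 0.0565 to 0.105.

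Class II promoters are known for a conserved module that ends in a CCAAT box, here read as ATTGG on the gene's strand. RefSeq windows matched 4 of the rising class II genes, 5 windows in all. Of these windows 4 held ATTGG or its complement CCAAT at any place, against 37.4% of all windows. ATTGG begins 48, 59 and 61 bases before the start in H2-Aa, H2-Eb1 and H2-DMb1. Of the H2-DMa windows 1 held no match, and in the other it begins 198 bases before the start. A 120-base stretch is shown for 3 of the 4 genes, chosen after the values were seen, with ATTGG in capitals. The stretches are H2-Aa at chr17:34287824-34287943 on the minus strand, and H2-Eb1 at chr17:34305747-34305866 and H2-DMb1 at chr17:34153071-34153190 on the plus strand (GRCm38.p6).
H2-Aa: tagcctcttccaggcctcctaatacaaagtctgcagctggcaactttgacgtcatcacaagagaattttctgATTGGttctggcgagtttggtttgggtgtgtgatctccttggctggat
H2-Eb1: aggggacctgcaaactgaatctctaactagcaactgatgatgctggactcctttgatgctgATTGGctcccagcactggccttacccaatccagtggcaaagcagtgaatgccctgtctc
H2-DMb1: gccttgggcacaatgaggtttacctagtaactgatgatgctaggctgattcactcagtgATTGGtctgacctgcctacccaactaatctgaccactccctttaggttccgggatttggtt
H2-Eb1 and H2-DMb1 share the 13-base run aactgatgatgct, which ends 17 and 18 bases before ATTGG, and 3 of the 32851 windows (0.00913%) hold that run. It was picked as the longest run shared by the H2-Eb1 and H2-DMb1 windows, so both are among the 3, with that of Slc39a10. Its share over all windows is thus no test. These are matches of letters, and no factor was measured there.

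MHC class I and its processing genes rose by less. Of 23 measured members 14 rose and 0 fell (median log2 fold change 0.46). The immunoproteasome subunit Psmb10 was at 72.9, 69.1 and 66.9 CPM in mock and 163, 207 and 166 CPM in IL-4 (1.36 ± 0.11, adjusted p = 4.2e-07), the chaperone Tapbp rose by 0.85 ± 0.05 (adjusted p = 3.0e-08), and H2-T23 by 0.91 ± 0.09 (adjusted p = 4.5e-06). H2-K1 was at 1134, 1117 and 1016 CPM in mock and 1629, 1907 and 1667 CPM in IL-4 (0.67 ± 0.14, adjusted p = 0.0019). B2m, the shared light chain, was at 1376, 1424 and 1050.4 CPM in mock and 1829, 2008 and 1775 CPM in IL-4 (0.54 ± 0.14, adjusted p = 0.0102). Reads of MHC genes with near-identical copies may have been split in counting.

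Signals that accompany antigen split by molecule. Of 22 costimulatory and checkpoint genes 4 rose and 7 fell. Besides Pdcd1lg2, Cd274 (PD-L1) was at 81.8, 73.9 and 90.3 CPM in mock and 181, 160 and 223 CPM in IL-4 (1.19 ± 0.12, adjusted p = 3.2e-06). Cd40 was at 2.56, 2.10 and 2.87 CPM in mock and 10.4, 8.17 and 8.72 CPM in IL-4 (1.85 ± 0.21, adjusted p = 8.9e-06). Icosl, the ligand of the T cell receptor ICOS, was at 4.46, 3.57 and 4.13 CPM in mock and 0.0998, 0.214 and 0.184 CPM in IL-4, 24.2 times lower (-4.59 ± 0.28, adjusted p = 1.8e-08), and Cd86 fell by 0.73 on the log2 scale (adjusted p = 0.000697).

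**Figure D4:**
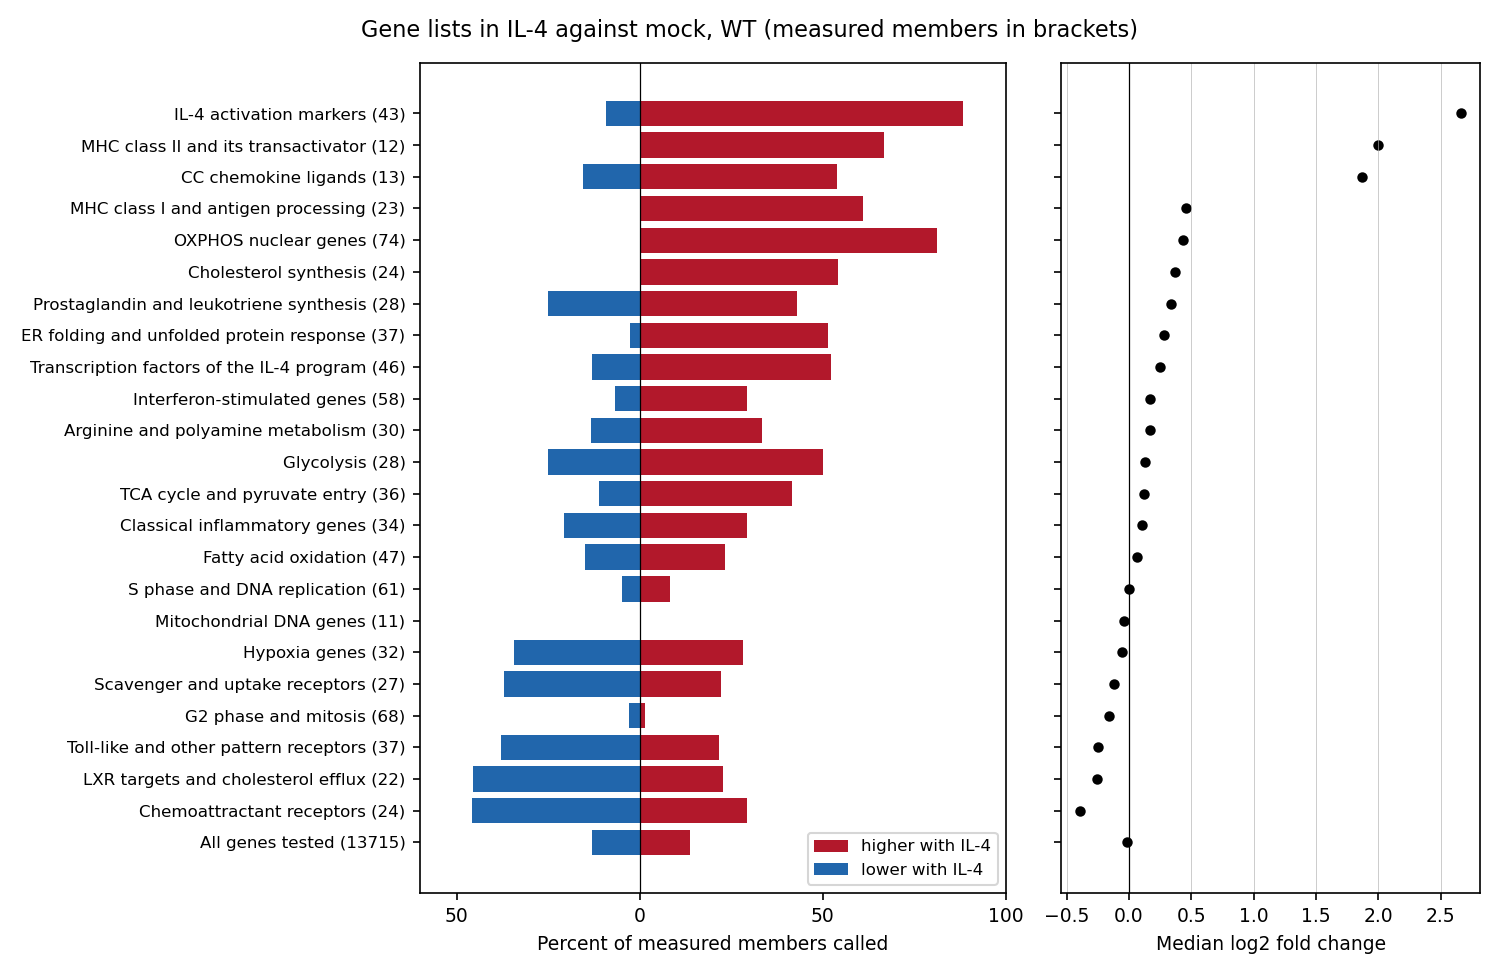
Left, percent of measured members called higher (red, to the right) and lower (blue, to the left) in WT. Drawn are 23 of the 51 gene lists, picked by hand, and all 13715 genes, where 13.6% and 13.0% were called. Right, median log2 fold change of the measured members. The tissue macrophage identity list, with the lowest median of the 51 (-0.51, 10 of 30 higher and 12 lower), is not drawn. Activation markers (2.66), MHC class II (2.0) and CC chemokines (1.87) have the largest medians, and nuclear respiratory genes have 81.1% called higher at a median of 0.43.

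CC chemokines, which draw in leukocytes, rose in 7 of 13 measured genes and fell in 2 (median log2 fold change 1.87). Ccl17 had 0 counts in mock and 73, 73 and 40 in IL-4, at least 56.5-fold higher, and Ccl24, an eotaxin that attracts eosinophils, had 0 and then 89, 82 and 30, at least 61.0-fold higher. Ccl22, which like Ccl17 signals through CCR4, was at 0.0321, 0.159 and 0.160 CPM in mock and 3.12, 5.63 and 3.99 CPM in IL-4 (5.11 ± 0.47, adjusted p = 1.4e-06). Ccl5 was at 1.03, 1.37 and 0.772 CPM in mock and 27.7, 31.1 and 20.1 CPM in IL-4 (4.65 ± 0.35, adjusted p = 1.5e-07). Ccl9 was at 114, 105 and 67.2 CPM in mock and 361, 367 and 318 CPM in IL-4 (1.87 ± 0.18, adjusted p = 1.7e-06). Ccl6 was at 94.5, 85.8 and 61.1 CPM in mock and 231, 269.6 and 253 CPM in IL-4 (1.64 ± 0.17, adjusted p = 4.4e-06). The inflammatory Ccl3 (11.3, 10.9 and 8.78 CPM in mock and 4.09, 5.17 and 4.27 CPM in IL-4; -1.19 ± 0.13, adjusted p = 6.3e-06) and Ccl4 (-1.43 ± 0.28, adjusted p = 0.0012) fell. Of 8 CXC and CX3C ligands 0 rose and 1 fell, Cxcl14 (-0.96 ± 0.12, adjusted p = 2.3e-05).

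Receptors for chemoattractants fell more often than they rose, with 11 of 24 measured genes lower and 7 higher. The median log2 fold change was -0.39, and with 1 library left out it ran from -0.67 (without WT mock 1) and -0.61 (IL-4 2) to -0.25 (IL-4 1) and -0.19 (mock 2). Besides Cx3cr1, Cxcr3 was at 10.5, 11.3 and 9.21 CPM in mock and 0.723, 1.18 and 1.66 CPM in IL-4 (-3.14 ± 0.20, adjusted p = 3.2e-08). The complement receptor C5ar1 was at 676, 738 and 718 CPM in mock and 229.7, 277 and 266 CPM in IL-4 (log2 change -1.46 ± 0.08 SE, edgeR adjusted p = 4.0e-09). S1pr1, a receptor for sphingosine 1-phosphate, was at 126, 144 and 136 CPM in mock and 45.9, 40.1 and 48.2 CPM in IL-4 (-1.599 ± 0.08, adjusted p = 2.8e-09). Against this direction Ltb4r1, the leukotriene B4 receptor, was at 0.833, 1.15 and 1.57 CPM in mock and 8.90, 9.30 and 7.55 CPM in IL-4 (2.84 ± 0.31, adjusted p = 7.7e-06), and Ccr1 rose by 0.99 ± 0.11 (adjusted p = 8.2e-06).

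Genes that sense microbes moved both ways, with more falls than rises. Of 37 Toll-like and other pattern receptor genes 14 fell and 8 rose (median log2 fold change -0.25), and the rises numbered 5 without WT mock 2, IL-4 1 or IL-4 3. Cd14, the lipopolysaccharide co-receptor, was at 113, 97.1 and 84.4 CPM in mock and 25.6, 24.04 and 19.2 CPM in IL-4 (log2 change -2.10 ± 0.15 SE, edgeR adjusted p = 7.2e-08). Tlr2, a receptor of bacterial lipopeptides, was at 42.7, 39.5 and 37.1 CPM in mock and 15.4, 12.9 and 15.2 CPM in IL-4 (-1.46 ± 0.10, adjusted p = 9.9e-08). Irak2, a kinase of the pathway (-0.96 ± 0.07, adjusted p = 9.8e-08), Cd180 (-0.85 ± 0.09, adjusted p = 3.4e-06) and Tlr7, a sensor of single-stranded RNA (-0.85 ± 0.11, adjusted p = 5.6e-05), fell as well. Of 10 Fc receptor genes 2 rose and 3 fell, with 1 rise without WT mock 2, mock 3, IL-4 1 or IL-4 3. The activating Fcgr1 was at 63.7, 66.6 and 57.4 CPM in mock and 17.9, 16.8 and 18.1 CPM in IL-4 (-1.83 ± 0.10, adjusted p = 4.4e-09). The inhibitory Fcgr2b was at 108, 91.5 and 89.0 CPM in mock and 339.6, 365 and 383 CPM in IL-4 (1.92 ± 0.08, adjusted p = 2.5e-10).

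Uptake receptors moved apart. Among 27 scavenger and uptake genes 6 rose and 10 fell. Olr1, a receptor for oxidized lipoprotein, was at 0.897, 0.987 and 0.878 CPM in mock and 13.3, 9.19 and 12.8 CPM in IL-4 (3.67 ± 0.24, adjusted p = 3.3e-08), and Marco rose by 3.13 ± 0.29 (adjusted p = 1.7e-06). Gas6, the bridge between dying cells and TAM receptors, was at 401, 419 and 508 CPM in mock and 141, 141 and 169 CPM in IL-4 (-1.56 ± 0.10, adjusted p = 2.9e-08). Mertk, one of those receptors, was at 172, 176 and 219.9 CPM in mock and 103, 89.9 and 135 CPM in IL-4 (-0.80 ± 0.13, adjusted p = 0.000298). Of 21 C-type lectin receptors 9 rose and 4 fell, with Clec4a3 at 36.6, 40.7 and 29.8 CPM in mock and 151, 157 and 146 CPM in IL-4 (2.08 ± 0.10, adjusted p = 9.5e-10). The β-glucan receptor Clec7a was at 546, 465 and 426 CPM in mock and 1281, 1098 and 1253 CPM in IL-4 (1.34 ± 0.09, adjusted p = 3.0e-08).

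Genes known from classical, lipopolysaccharide-driven activation did not move as a block. Of 34 measured 10 rose and 7 fell (median log2 fold change 0.10, and 0.16 without WT mock 3). Nos2, the inducible nitric oxide synthase, was listed at 0 in all mock libraries and at 0.873, 0.375 and 0.614 CPM in IL-4 (adjusted p = 0.00038). Acod1, which makes itaconate, was at 0.417, 0.509 and 0.399 CPM in mock and 7.98, 6.27 and 5.34 CPM in IL-4 (3.88 ± 0.27, adjusted p = 8.1e-08). Tnf was at 6.35, 7.29 and 6.20 CPM in mock and 5.16, 6.003 and 5.83 CPM in IL-4 without a call (-0.22 ± 0.12, adjusted p = 0.19). Ptgs2, cyclooxygenase 2, was at 0.160, 0.350 and 0.293 CPM in mock and 0.624, 0.188 and 0.276 CPM in IL-4 with overlapping groups (0.45 ± 0.54, adjusted p = 0.6). Of 58 interferon-stimulated genes 17 rose and 4 fell, the falls numbering 0 to 2 in most fits without 1 WT library, and Gbp2, a guanylate-binding protein, was at 4.62, 5.76 and 4.82 CPM in mock and 19.5, 19.5 and 21.3 CPM in IL-4 (1.99 ± 0.13, adjusted p = 4.8e-08).

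In arginine and polyamine metabolism 10 of 30 measured genes rose and 4 fell, and 2 fell without WT mock 1, mock 2 or IL-4 1. Beside Arg1 and its substrate's transporter Slc7a2, Ass1, which rebuilds arginine from citrulline, was at 4.94, 5.70 and 4.15 CPM in mock and 19.0, 19.1 and 13.8 CPM in IL-4 (1.82 ± 0.16, adjusted p = 9.2e-07). Odc1, which turns ornithine into putrescine, rose by 0.33 ± 0.08 (adjusted p = 0.0042). Eif5a, the protein that polyamine-derived hypusine modifies, was at 463, 499 and 448 CPM in mock and 765, 872 and 796 CPM in IL-4 (0.79 ± 0.07, adjusted p = 6.6e-07).

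Genes of prostanoid and leukotriene synthesis and sensing moved in both directions. Of 28 measured members 12 rose and 7 fell (median log2 fold change 0.34). Ptgs1 was at 14.1, 11.4 and 9.58 CPM in mock and 169, 154 and 146 CPM in IL-4 (log2 change 3.74 ± 0.12 SE, edgeR adjusted p = 3.1e-11). Tbxas1, thromboxane synthase, was at 315, 319 and 317 CPM in mock and 713, 716 and 696 CPM in IL-4 (1.16 ± 0.05, adjusted p = 1.2e-09). Ptgir, the prostacyclin receptor, was at 27.2, 21.3 and 26.9 CPM in mock and 92.3, 84.2 and 81.3 CPM in IL-4 (1.77 ± 0.12, adjusted p = 6.1e-08). Hpgds, which makes prostaglandin D2, was at 199.6, 213 and 193 CPM in mock and 68.0, 73.1 and 73.4 CPM in IL-4 (-1.498 ± 0.06, adjusted p = 4.0e-10). Hpgd, which inactivates prostaglandins, was at 9.39, 7.64 and 6.10 CPM in mock and 1.596, 1.18 and 1.87 CPM in IL-4 (-2.31 ± 0.21, adjusted p = 1.0e-06).

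The nuclear genes of the respiratory chain rose together by small amounts. Of 74 measured members 60 rose and 0 fell, 0 of them by 2-fold, with a median log2 fold change of 0.43 beside -0.02 over all genes. Their summed level was 6050 to 7057 CPM in mock and 8446 to 9890 CPM in IL-4. By complex, 26 of 36 genes of complex I rose (median 0.36), 4 of 4 of complex II (0.42), 7 of 8 of complex III (0.58), 9 of 11 of complex IV (0.52) and 13 of 14 of ATP synthase (0.50). Over the alternatives 50 to 68 of the 74 were called.

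Single subunits show the size of the shift. Cox8a of complex IV was at 129, 149 and 127 CPM in mock and 224, 276 and 216 CPM in IL-4 (0.83 ± 0.09, adjusted p = 8.9e-06). Uqcr10 of complex III was at 43.8, 50.5 and 46.5 CPM in mock and 76.6, 87.6 and 75.9 CPM in IL-4 (0.77 ± 0.08, adjusted p = 2.6e-06). Atp5b of ATP synthase was at 748, 803 and 752 CPM in mock and 1190.2, 1244 and 1165 CPM in IL-4 (0.64 ± 0.06, adjusted p = 1.2e-06). In each the lowest IL-4 library was above the highest mock library. Ndufb3 of complex I, with overlapping groups, was at 24.7, 32.2 and 22.7 CPM in mock and 25.4, 28.5 and 25.3 CPM in IL-4 (-0.01 ± 0.11, adjusted p = 0.98). The 11 measured genes of mitochondrial DNA gave 0 calls in edgeR, with 2 at an unadjusted p under 0.05, and 0 calls in DESeq2. Their median log2 fold change was -0.04 and took either sign with 1 library left out, from -0.16 (without WT IL-4 2) to 0.15 (without WT IL-4 3). Without WT mock 3 or IL-4 2 the calls were 2 lower, and without WT IL-4 3 they were 1 higher. The complex III subunit gene mt-Cytb had overlapping groups at 389, 365 and 290.1 CPM in mock and 419.8, 452 and 287 CPM in IL-4 (0.15 ± 0.15, adjusted p = 0.499). The rRNA genes mt-Rnr1 and mt-Rnr2 were called lower with the replicate block (adjusted p = 0.000534 and 0.000278).

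**Figure D5:**
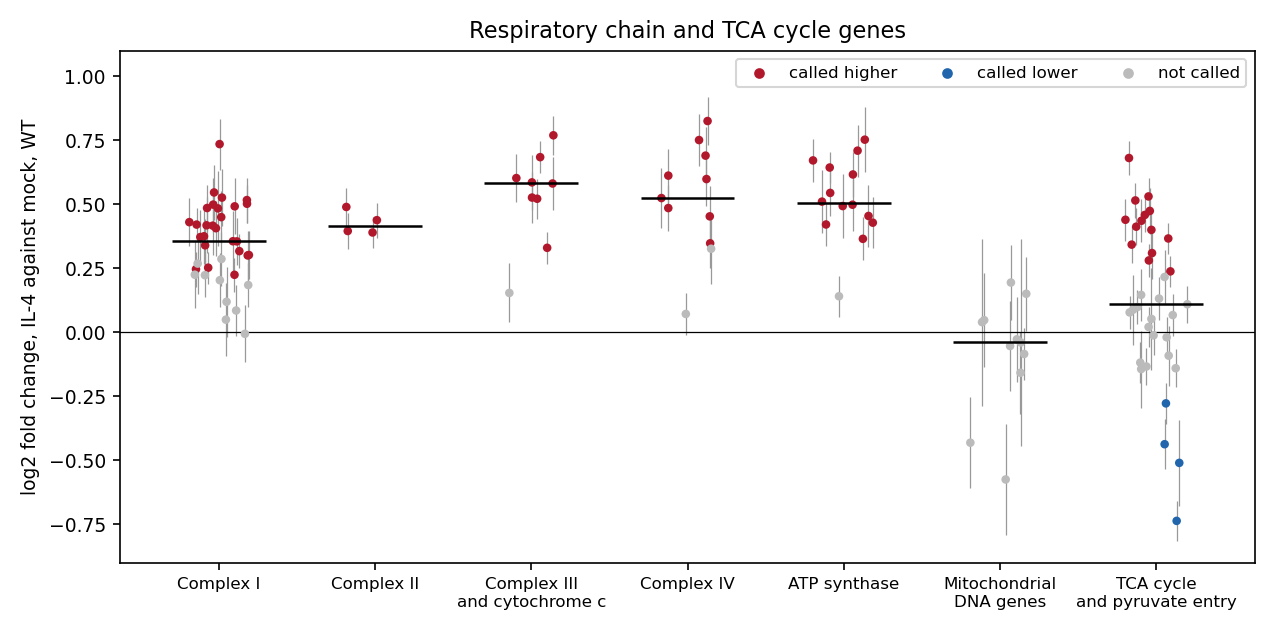
Log2 fold change of IL-4 against mock in WT (vertical), 1 point a gene with its SE, by respiratory complex (cytochrome c is drawn with complex III), for mitochondrial DNA genes and for the TCA cycle, with bars at group medians; Acod1, at 3.88, is left out. Nuclear subunits range from -0.01 to 0.83, with group medians of 0.36 to 0.58, while mitochondrial DNA genes have a median of -0.04, whose sign depends on the libraries included.

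Enzymes of the TCA cycle, which feeds the chain, rose more often than they fell. Of 36 genes of the cycle and of pyruvate entry 15 rose and 4 fell, with 2 falls in fits without WT mock 1, mock 2 or IL-4 2. Idh3a, a subunit of isocitrate dehydrogenase, was at 53.1, 55.9 and 51.4 CPM in mock and 83.7, 86.6 and 86.8 CPM in IL-4 (0.68 ± 0.06, adjusted p = 1.9e-06). Cs, citrate synthase, rose by 0.46 ± 0.07 (adjusted p = 0.00012). Suclg2, a subunit of the GTP-forming succinyl-CoA ligase, was at 20.5, 21.3 and 20.04 CPM in mock and 11.8, 12.8 and 12.5 CPM in IL-4 and fell by 0.74 on the log2 scale (adjusted p = 5.7e-06).

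In fatty acid oxidation 11 of 47 measured genes were higher and 7 lower, near the 13.0% of all genes called lower, the rises numbering 7 without WT mock 1 and the falls 3 without WT IL-4 1. Cd36, a fatty acid transporter, was at 1767, 2059.5 and 1914 CPM in mock and 2780.3, 2284 and 3030.5 CPM in IL-4 (0.50 ± 0.10, adjusted p = 0.0014). In glycolysis 14 of 28 entries rose and 7 fell, and 3 to 4 fell in fits without 1 of 5 WT libraries. Pfkp, the platelet-type phosphofructokinase, was at 118, 119.5 and 123 CPM in mock and 275, 253 and 247 CPM in IL-4 (1.105 ± 0.07, adjusted p = 1.9e-08), while the liver-type Pfkl was at 143, 143 and 164 CPM in mock and 84.4, 93.7 and 94.2 CPM in IL-4 (-0.72 ± 0.08, adjusted p = 7.8e-06). Slc2a6, a lysosomal member of the glucose transporter family, was at 24.97, 19.8 and 17.6 CPM in mock and 95.3, 96.7 and 75.3 CPM in IL-4 (2.10 ± 0.17, adjusted p = 2.8e-07).

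Cholesterol synthesis genes that were called all rose, while targets of the sterol receptor LXR and efflux genes moved both ways, with more falls than rises. Of 24 synthesis genes 13 rose and 0 fell (median log2 fold change 0.37), and 8 rose without WT IL-4 1. Dhcr7, of the last steps of the pathway, was at 64.0, 58.9 and 63.1 CPM in mock and 139, 145 and 150.1 CPM in IL-4 (1.22 ± 0.07, adjusted p = 1.3e-08). Mvd, an earlier enzyme, rose by 0.87 ± 0.09 (adjusted p = 6.3e-06). Among 22 targets of the sterol receptor LXR and efflux genes 10 fell and 5 rose (median -0.26), with 3 rises without WT mock 1, mock 3 or IL-4 2 or in the 6 WT libraries alone. Apoe, the lipoprotein that carries cholesterol from macrophages, was at 29960, 26966 and 32598 CPM in mock and 14956, 16691 and 18559 CPM in IL-4 (log2 change -0.83 ± 0.14 SE, edgeR adjusted p = 0.00032). Mylip, which degrades the LDL receptor, was at 58.1, 60.8 and 72.0 CPM in mock and 22.6, 24.4 and 30.3 CPM in IL-4 (-1.31 ± 0.11, adjusted p = 7.8e-07). Against these Abcg1, a sterol exporter, was at 202, 217 and 194 CPM in mock and 306, 359 and 309.6 CPM in IL-4 (0.67 ± 0.09, adjusted p = 3.4e-05).

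Secretory folding genes that were called nearly all rose. Of 37 measured members of the endoplasmic reticulum folding and unfolded protein response list 19 rose, 1 fell and 17 were not called (median log2 fold change 0.28). Pdia4, a disulfide isomerase, was at 126, 131 and 125 CPM in mock and 399, 386 and 446 CPM in IL-4 (log2 change 1.69 ± 0.07 SE, edgeR adjusted p = 3.1e-10). Creld2 was at 51.9, 52.5 and 47.3 CPM in mock and 98.9, 108 and 96.2 CPM in IL-4 (0.999 ± 0.07, adjusted p = 8.5e-08). The lectin chaperone Calr was at 688, 734 and 714 CPM in mock and 1148, 1141 and 1136 CPM in IL-4 (0.68 ± 0.08, adjusted p = 8.7e-06). Hspa5, the chaperone BiP, rose by 0.42 ± 0.08 (adjusted p = 0.00086).

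Genes of cell fusion, by which IL-4-treated macrophages are known to form giant cells, rose in 12 of 24 cases and fell in 2, or in 1 without WT mock 1 or IL-4 1. Besides Ocstamp and Cdh1, Dcstamp, the other master fusion gene, was at 30.4, 22.4 and 17.7 CPM in mock and 107, 92.4 and 73.7 CPM in IL-4 (1.95 ± 0.25, adjusted p = 3.0e-05). Acp5, tartrate-resistant phosphatase, was at 62.0, 59.8 and 66.1 CPM in mock and 134, 149 and 148 CPM in IL-4 (1.195 ± 0.07, adjusted p = 1.5e-08). The integrin Itgb3 was at 13.8, 19.9 and 30.6 CPM in mock and 121, 77.1 and 102 CPM in IL-4 (2.22 ± 0.28, adjusted p = 2.8e-05). Of 42 adhesion molecules 17 rose and 15 fell. Itgax, CD11c, was at 231, 197 and 199.7 CPM in mock and 1347, 1034 and 1120.2 CPM in IL-4 (2.48 ± 0.16, adjusted p = 3.2e-08). Itga6 was at 223, 208 and 209 CPM in mock and 83.0, 61.8 and 83.5 CPM in IL-4 (-1.49 ± 0.14, adjusted p = 1.8e-06). Fn1, fibronectin, was at 33.5, 32.2 and 42.6 CPM in mock and 252, 162 and 271 CPM in IL-4 (2.66 ± 0.24, adjusted p = 9.8e-07). Mmp12, macrophage elastase, was at 2118, 2052 and 1761 CPM in mock and 4535, 3949 and 4166 CPM in IL-4 (1.09 ± 0.14, adjusted p = 3.7e-05).

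Proliferation genes gave few calls, at 13.1% of S phase and 4.41% of G2 phase and mitosis genes, beside 26.7% of all genes. Of 61 S phase genes 5 rose and 3 fell (median log2 fold change 0.00, between -0.02 and 0.06 with 1 library left out), and of 68 genes of G2 phase and mitosis 1 rose and 2 fell (median -0.16, and -0.09 without WT IL-4 3). The S phase rises numbered 2 without WT mock 1 or IL-4 1, and the G2 falls 0 without WT mock 3 or IL-4 3. With the replicate block 10 of the 68 were called lower, and 9 in a fit of the 6 WT libraries alone. Mki67 was at 13.8, 14.5 and 15.6 CPM in mock and 14.5, 10.1 and 9.92 CPM in IL-4 with overlapping groups (-0.34 ± 0.27, adjusted p = 0.398). Aspm, a spindle protein, was at 3.33, 2.71 and 2.79 CPM in mock and 1.67, 1.69 and 1.35 CPM in IL-4 without a call (-0.90 ± 0.35, adjusted p = 0.073), and it was called with the replicate block (adjusted p = 0.00598).

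Measured as a difference of mean CPM, which weighs the abundant genes, the rises were led by Lgals3, galectin 3, at 8171, 8336 and 7667 CPM in mock and 12883, 15208 and 12761 CPM in IL-4 (log2 change 0.76 ± 0.08 SE, edgeR adjusted p = 7.9e-06). Besides Chil3, Cd74 and Mmp12 the list held Ctsz (0.59 ± 0.07, adjusted p = 1.1e-05), Prkcd, protein kinase C delta (1.85 ± 0.06, adjusted p = 4.1e-11), Anxa1 (0.51 ± 0.07, adjusted p = 6.1e-05) and the actin-capping Capg (0.76 ± 0.06, adjusted p = 3.9e-07). The falls were Apoe, Ctsd, cathepsin D, at 29641, 30455 and 31818 CPM in mock and 16782, 18586 and 20504 CPM in IL-4 (-0.72 ± 0.08, adjusted p = 7.8e-06), the ferritin heavy chain Fth1 at 25255, 28213 and 23615 CPM in mock and 16240, 20574 and 17829 CPM in IL-4 (-0.50 ± 0.10, adjusted p = 0.0014), Plin2 (-0.63 ± 0.10, adjusted p = 0.00023), Itm2b (-0.46 ± 0.08, adjusted p = 0.00089), Selenop (-1.32 ± 0.13, adjusted p = 1.9e-06), Ctsb (-0.31 ± 0.08, adjusted p = 0.0104) and Gpnmb (-0.26 ± 0.07, adjusted p = 0.011). Without WT mock 3 the calls of Ctsb (adjusted p = 0.0661) and Gpnmb (0.052) were lost, and that of Gpnmb also without WT mock 2 (0.0609) or IL-4 1 (0.0678). The 10 most abundant genes took 22.8% to 23.4% of the CPM in mock and 17.6% to 19.1% in IL-4.

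Lyz2, lysozyme M, was at 44637, 42157 and 39652 CPM in mock and 28471, 29046 and 31113 CPM in IL-4, so its groups did not overlap, yet it was not called (log2 change -0.51 ± 1.37 SE, edgeR adjusted p = 0.83). It was called lower in the 6 WT libraries alone (adjusted p = 0.00041), without the KO 2 libraries (0.00012) and with the replicate block (0.0001). In all, 30 genes with no overlap, 17 higher and 13 lower, were called in WT alone and without the KO 2 libraries but not in the fit of all 12. C1qb, a chain of complement C1q, was among them at 2586, 2399 and 2284 CPM in mock and 2952, 3075 and 2687 CPM in IL-4 (0.26 ± 0.12, adjusted p = 0.12, and 0.0342 in WT alone).

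Of 1045 long noncoding RNAs 80 rose and 61 fell, so 13.5% were called, beside 26.7% of all genes. AW112010, which in mouse also encodes a peptide, was at 3.91, 5.13 and 2.74 CPM in mock and 17.2, 17.1 and 14.1 CPM in IL-4 (2.05 ± 0.28, adjusted p = 7.5e-05). Gm16315 was at 3.04, 2.29 and 2.08 CPM in mock and 8.33, 10.5 and 6.91 CPM in IL-4 (1.80 ± 0.19, adjusted p = 5.3e-06). Gm16675 was at 1.31, 1.34 and 1.22 CPM in mock and 4.29, 4.29 and 5.41 CPM in IL-4 (1.85 ± 0.17, adjusted p = 1.4e-06), while Gm15261 rose by 1.89 ± 0.45 (adjusted p = 0.0054). The falls included F630028O10Rik at 18.2, 15.1 and 14.3 CPM in mock and 4.89, 4.77 and 4.48 CPM in IL-4 (-1.75 ± 0.13, adjusted p = 2.0e-07), Gm14221 (-1.67 ± 0.14, adjusted p = 5.0e-07), Gm5086 (-1.56 ± 0.11, adjusted p = 6.1e-08) and Gm26674 (-1.53 ± 0.27, adjusted p = 0.00057). No source used here states strandedness, and without it overlapping or antisense genes can share reads.

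The same stimulus in KO cells gave log2 fold changes that followed those in WT among genes with large changes in WT. Over the 901 genes called at least 2-fold in WT the fold changes correlated at r = 0.948 across genes, which are not independent replicates, and 884 had the same sign. This choice leaves out genes near 0 in WT, which tends to raise both values, and no value over all genes is given here. The fold change in KO was 7.60 for Arg1, 6.16 for Chil3 and 3.08 for Mrc1, on the log2 scale, and none of these was called in the interaction test (adjusted p = 0.11, 0.12 and 0.795). That test, the IL-4 effect in KO minus that in WT, called 101 genes (0.736%) in edgeR, 84 of them also called in WT, and 2538 had an unadjusted p under 0.05. With the replicate block it called 1596, without WT mock 1 it called 14, and with the KO 2 libraries left out it called 0 (2292 at an unadjusted p under 0.05). DESeq2 called 751 with all 12 libraries.

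Of the 901 genes 28 were called in the interaction test. They were chosen for a change of at least 2-fold in WT, which by itself favours values nearer 0 in KO, so no direction is read from their tally. Socs2 rose by 4.67 in WT and 3.14 in KO (interaction -1.53, adjusted p = 0.015). Ptgs1 rose by 3.74 and 2.81 (interaction -0.94, adjusted p = 0.023), and Thbs1 changed by -2.61 and -1.13 (interaction 1.48, adjusted p = 0.046). Fn1 went the other way, with 2.66 in WT and 4.27 in KO (interaction 1.61, adjusted p = 0.042). Of the 74 nuclear respiratory genes 7 were called in the interaction test, and the medians of complexes I to V in KO were -0.05, 0.05, 0.08, 0.15 and 0.06. All these interaction calls were lost with the KO 2 libraries left out.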

How the data were processed

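The series holds 12 RNA-seq libraries, of which the 6 from WT cultures form the comparison described here. An RNeasy Micro kit served for extraction, per the labels. No library kit or strandedness is given in the sources used here. The submitters' processing notes name build mm10, bcl2fastq, edgeR, featureCounts (Subread 1.6.5) and STAR 2.7.2b, without their order. The deposited table gave raw read counts per gene and library, per the file headers, with gene coordinates, types and lengths and the authors' log2 fold changes and adjusted p-values of their comparisons. How the authors filtered genes is not given; the lowest total over the 12 libraries was 50 counts. The authors' 24 columns of normalized log values per sample were not used. Some genes are not reported here.

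The deposited counts went into edgeR 4.0.16 under R 4.3.3 (quasi-likelihood test, TMM factors, filterByExpr, which removed 0 genes), with 1 coefficient for each of 4 groups of 3 libraries, leaving 8 residual degrees of freedom (common dispersion 0.0115). A gene was called at an adjusted p under 0.05 (Benjamini-Hochberg, 13715 genes); adjusted p-values are from this two-sided test unless another is named. SE is the size of the log2 fold change divided by the square root of this test's F statistic. It is therefore approximate, and for genes with few counts in a group it can be smaller than the counting error. CPM used TMM library sizes, and log2 CPM a prior count of 2. The authors' deposited table called 3844 genes at the same threshold, 3619 of them shared. The script was tested on simulated data. Replicates differed by more than sampling noise (chi-square per degree of freedom of at least 10.6). Promoter windows came from RefSeq. Tables and figures used Python 3.11.15, pandas 2.3.3 and matplotlib 3.10.9.

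Titles give a number to each culture within a genotype. Deviations from group means of same-numbered mock and IL-4 libraries correlated at 0.221, 0.485 and 0.404 over 8172 genes. All exceed 0.1, so the numbers were taken to pair the libraries, from the titles and these correlations. WT IL-4 1 correlated more with mock 3 (0.275) than with mock 1. The deviations also followed gene length (Spearman's rho across genes from -0.537 to 0.527). The fit reported does not use the pairing, and fits with the replicate block are alternatives. Other alternatives were median-of-ratios factors, library size alone, no filter, at least 1 CPM in 3 WT libraries, the 6 WT libraries alone, a gene-length correction, each WT library left out, the KO 2 libraries left out, and DESeq2 1.42.0.

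Genes were named by a rule: the 16 largest rises and falls among called genes whose groups did not overlap and whose mean log2 CPM reached 3, the 8 largest differences of CPM each way, genes switched on or off, the lowest adjusted p-values of each list (at most 4), fixed markers, and long noncoding RNAs. Any other gene was chosen after its values were seen. The comparison and the 51 gene lists were chosen with earlier results of these data known.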

Additional observations from a re-analysis of the deposited data

Results flagged for a closer look

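For 24 of the genes described, the IL-4 response differed between KO and WT by the interaction test in edgeR with all 12 libraries. Each value in brackets is the KO response less the WT response, on the log2 scale. The response was lower in KO for Socs2 (-1.53), Gpc1 (-1.18), Ier3 (-1.100), Ptgs1 (-0.94), H2-DMb1 (-0.82), Dok2 (-0.81), Flot1 (-0.70), Lgals3 (-0.58) and Capg (-0.52), all of which rose in WT. The same held for the mitochondrial genes Ndufa13 (-0.65), Cyc1 (-0.59), Uqcr10 (-0.59) and Mdh2 (-0.50).

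The response was higher in KO for Fn1 (1.61), Prps1 (1.005), Clec7a (0.80) and Fcgr2b (0.60), which rose in WT. It was also higher for genes that fell in WT, namely Thbs1 (1.48), Bmf (1.195), Vegfa (1.02), Cd86 (0.99), Nr4a1 (0.96), Tlr7 (0.85) and Ulk1 (0.74). With the KO 2 libraries left out none of the 24 was called (adjusted p of 0.0874 or more).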

How the results depend on the processing

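Genes called in WT numbered 2951 to 4727 over the alternatives (4592 with the replicate block, 3632 of them shared; 3011 in the 6 WT libraries alone; 3805 by DESeq2), with 50.2% to 57.6% of calls higher. At least 2-fold lower calls, 381, fell to 233 when genes had to reach 1 CPM in 3 WT libraries. Of 323 genes in the tables behind the text 42 changed their call in at least 1 of 17 alternatives. Call and direction held in all 17 for 268, and for the other 13 in those that tested them (at least 14). Many of the 323 were named for low adjusted p-values or large changes in these same libraries, which favours calls that hold. Over all genes 2851 of the 3658 calls were shared by the fit without WT mock 1, and 2851 by that without WT IL-4 1. The interaction count, 101, became 65 with library size alone, 1596 with the replicate block, 930 with the length correction and replicate block, 751 by DESeq2 and 0 without the KO 2 libraries. It was 14 to 102 with 1 WT library left out. The cause of these shifts was not tested. The replicate block changed the call of 15 of the 323 genes, all of them gaining one. Low counts limit folds of the switched genes.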

Other observations

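Iron genes moved both ways, with 7 of 26 measured higher and 6 lower. Tfrc, the transferrin receptor that imports iron, was at 87.7, 139 and 136 CPM in mock and 399, 394 and 619 CPM in IL-4 (log2 change 1.96 ± 0.21 SE, edgeR adjusted p = 5.3e-06), while Slc40a1, ferroportin, which exports it, was at 126, 125 and 134 CPM in mock and 22.1, 16.5 and 23.2 CPM in IL-4 (-2.64 ± 0.12, adjusted p = 7.9e-10). Slc11a1, a phagosomal metal transporter, fell from 852, 838 and 895 CPM to 455, 464 and 472 CPM (-0.89 ± 0.06, adjusted p = 1.1e-07). Cytokine receptors rose in 19 of 42 cases and fell in 8: Il1r1, the signalling IL-1 receptor, was at 0.160, 0.127 and 0.0799 CPM in mock and 2.82, 1.72 and 2.36 CPM in IL-4 (4.22 ± 0.39, adjusted p = 1.3e-06), Il1rl1, the IL-33 receptor, had 3, 3 and 0 counts in mock and 72, 37 and 53 in IL-4, and Il17ra was at 111, 109 and 128 CPM in mock and 56.8, 53.7 and 60.2 CPM in IL-4 (-1.03 ± 0.08, adjusted p = 1.3e-07).

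Secreted factors fell in 12 of 34 cases and rose in 7. Called shares were 55.9% for these, 62.5% for the hypoxia genes and 63.2% for the clock genes below, beside 26.7% of all genes. Vegfa was at 52.8, 39.0 and 47.3 CPM in mock and 15.2, 12.9 and 13.0 CPM in IL-4 (-1.76 ± 0.15, adjusted p = 4.2e-07) and Igf1, a growth factor of tissue repair, at 489, 472 and 419.6 CPM in mock and 978, 914 and 922 CPM in IL-4 (1.03 ± 0.08, adjusted p = 1.7e-07). Among 32 hypoxia genes 9 rose and 11 fell, with Egln3, an oxygen-sensing hydroxylase, at 3.97, 3.63 and 4.05 CPM in mock and 1.596, 1.13 and 0.768 CPM in IL-4 (-1.72 ± 0.21, adjusted p = 2.0e-05). Of 19 clock genes 4 rose and 8 fell, Nr1d1, the repressor REV-ERBα, being at 8.33, 7.61 and 8.81 CPM in mock and 1.82, 3.08 and 3.01 CPM in IL-4 (-1.65 ± 0.18, adjusted p = 7.5e-06). Of 4 endothelial marker genes 3 were measured: Vwf was at 54.2, 48.4 and 55.6 CPM in mock and 137, 121 and 127 CPM in IL-4 (1.28 ± 0.11, adjusted p = 9.8e-07) and Pecam1 at 0.801, 0.796 and 0.878 CPM in mock and 4.21, 4.58 and 6.08 CPM in IL-4 (2.57 ± 0.22, adjusted p = 6.0e-07), both higher, Kdr fell by 1.52 on the log2 scale (adjusted p = 0.000204), and the defining marker Cdh5 was not analysed here.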
